A study of Homo sapiens with 12 samples.

Results

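The genes described here are 45 genes of mitosis, the kinetochore and the spindle checkpoint, out of 60649 gene rows in each of the 2 deposited count tables. They were chosen by symbol, with earlier results of these data known, so their shares beside those of all genes are descriptions. Each of the 45 symbols matched 1 row through its Ensembl gene ID. All 45 passed the filter on low counts in both experiments. The RNA came from 12 samples of xenograft tumours grown from Cal33, an established human line of squamous cell carcinoma of the head and neck, so every group carries the same line in a host animal. In the first experiment, 3 samples of group smTEADi, treated with SW-682, a small molecule that inhibits TEAD, were compared with 3 Vehicle samples. In the second, 3 samples labelled pTEADi and DOX+ were compared with 3 labelled Control and DOX-, where DOX is read as doxycycline, the usual inducer of such constructs, and pTEADi as the TEAD inhibitor it induces. The labels name no group given doxycycline without pTEADi, so the agent and the inhibitor cannot be told apart, and they give no dose or duration. The series is about blocking the partnership of YAP and TAZ with TEAD in this cancer. Whether each sample came from an animal of its own is not stated in the labels, so the p-values cover only the spread among these samples, which may be technical.

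During mitosis, CDK1 with a B-type cyclin drives entry, condensin and topoisomerase compact the chromosomes, and kinetochores built on CENPA chromatin capture the microtubules of the spindle. Kinetochores without attached microtubules feed the spindle checkpoint, which holds back CDC20 and with it the anaphase-promoting complex, the ubiquitin ligase that starts anaphase. Most of these genes are transcribed in G2 and mitosis, and the level of their mRNA in a tumour rises with the share of cells in those phases. TEAD proteins are the DNA-binding partners of the co-activators YAP and TAZ, and cell cycle genes are among the genes that YAP and TAZ are known to activate in epithelial tumours.

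Both treatments were followed by lower mRNA of nearly the whole set. With SW-682, 40 of 45 genes fell and 0 rose, where 3.48% of all 14829 genes tested fell and 2.02% rose. With pTEADi, 44 of 45 fell and 0 rose, against 13.6% of 14705 genes that fell and 12.7% that rose. Calls are Benjamini-Hochberg adjusted p-values under 0.05 of edgeR's quasi-likelihood test. The log2 fold change, in which each unit is a factor of 2, was negative for all 45 genes in both comparisons, against 48.9% and 50.1% of all genes. Its median over the 45 genes was -1.22 with SW-682 and -1.04 with pTEADi, beside 0.01 and -0.000672 over all genes tested. In 40 genes the fall passed in both comparisons, which 3.27% of the 14384 genes tested in both did. The gene CKAP2 passed in neither, and CDC25C, NDC80, NCAPH and CDCA2 passed with pTEADi only. For none of these 4 did the difference between the treatments pass its own test. In bulk tumour RNA, fewer cells in mitosis and less of each mRNA per cell cannot be told apart.

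Libraries held 13576494 to 15433679 expected counts, with 3.64% to 5.99% of them in mitochondrially encoded genes. In the SW-682 experiment 2 libraries stood apart on these genes. The library smTEADi 1 was the lowest of its group in 44 of the 45 genes, and Vehicle 2 was the lowest of its group in 44. The mean log2 CPM (counts scaled to library size, with TMM factors) of the 45 genes was 3.25, 4.06 and 3.9 in smTEADi 1 to 3 and 5.03, 4.56 and 5.17 in Vehicle 1 to 3. In the other experiment it was 4.27, 4.06 and 4.39 in pTEADi 1 to 3 and 5.24, 5.25 and 5.25 in Control 1 to 3. Treated and control libraries did not overlap on this mean in either experiment, the closest pair being Vehicle 2 and smTEADi 2.

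**Figure D1:**
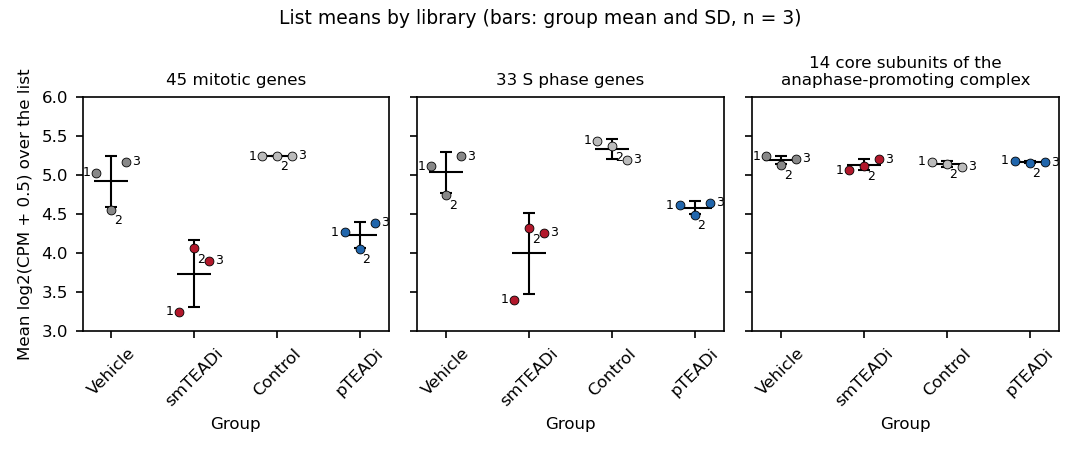
Mean log2(CPM + 0.5) of each library (points, numbered by replicate) over the 45 mitotic genes, 33 S phase genes and 14 core subunits of the anaphase-promoting complex, with the group mean and SD (n = 3) as bars. The mitotic and S phase means are lower in smTEADi and pTEADi than in their controls, smTEADi 1 is the lowest library in both, and the means of the core subunits lie between 5.07 and 5.24 in all 12 libraries.

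With SW-682 the calls lay near the threshold, and their number depended on single libraries. Adjusted p-values of the 45 genes ran from 0.0365 to 0.0871 with SW-682 and from 4.31e-05 to 0.0775 with pTEADi in edgeR's quasi-likelihood test. With SW-682, 0.0365 was also the smallest edgeR adjusted p over all 14829 genes tested. The adjustment gave it to many genes alike, so it does not rank them. The SW-682 count of 40 became 28 without smTEADi 1, 29 without smTEADi 2, 44 without Vehicle 2, and 0 without smTEADi 3, Vehicle 1 or Vehicle 3. With smTEADi 1 and Vehicle 2 both left out, a choice made after their values had been seen, it was 45 of 45 at a median log2 fold change of -1.16. The pTEADi count stayed between 42 and 45 when any library was left out. By DESeq2 the counts were 45 and 44, and by limma-voom 41 and 44.

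Fold changes spanned a log2 value of -1.57 (CDC25C) to -0.50 (CKAP2) with SW-682 and -1.33 (CKAP2L) to -0.33 (CKAP2) with pTEADi. Every smTEADi library was below every Vehicle library in 45 of 45 genes, against 17.3% of all genes tested. Every pTEADi library was below every Control library in 44 of 45, against 21.9%, the exception being CKAP2.

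**Figure D2:**
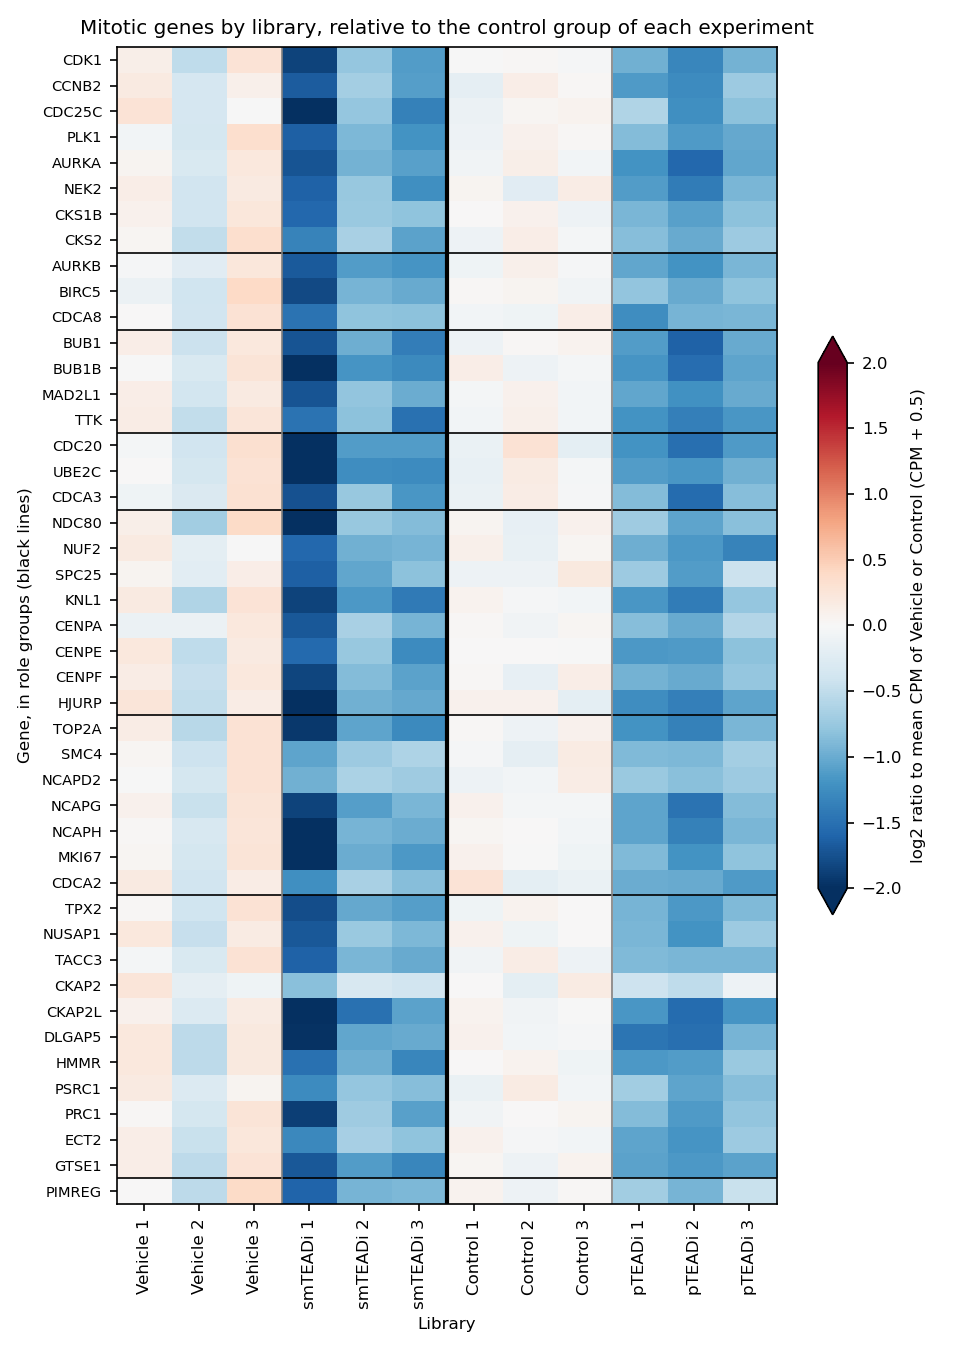
Heat map of the 45 genes (rows, in role groups split by black lines) in the 12 libraries (columns), as the log2 ratio of CPM + 0.5 to the mean of Vehicle (left block) or Control (right block). Treated libraries are blue in nearly every row, smTEADi 1 is the darkest column, Vehicle 2 is the bluest of the control columns, and CKAP2 is the palest row.

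Promoter stretches of a few of the genes are shown here because the set moved together. The CHR (cell cycle genes homology region) is an element through which the DREAM and MYB-MuvB complexes hold G2 and mitotic genes down in resting cells and switch them on in dividing ones, and it is often paired with CCAAT boxes, the binding motif of NF-Y. RefSeq promoter windows (GRCh38.p14, 250 bases before to 50 after the gene start) were at hand for 37 of the 45 genes, in 44 windows. The genes AURKA, BIRC5, TTK, UBE2C, KNL1, CDCA2, TPX2 and PIMREG had no window. The letters TTTGAA or TTCAAA were searched for the CHR and CCAAT or ATTGG for the CCAAT box, which covers both strands. The printed stretches end next to the gene start and hold no exon of Gencode 44, and TACC3 and CKAP2 lie inside the span of longer transcripts of their own gene. The windows of CKS2 (chr9:89311045-89311194, plus strand), CDC20 (chr1:43358831-43358980, plus), MKI67 (chr10:128126424-128126573, minus) and GTSE1 (chr22:46296720-46296869, plus) are shown for their matches. Those of TACC3 (chr4:1720481-1720630, plus) and CKAP2 (chr13:52455838-52455971, plus, 16 bases next to the start left out as annotated exon) are shown because they have none. They were chosen after the search, and capitals mark each match.
CKS2: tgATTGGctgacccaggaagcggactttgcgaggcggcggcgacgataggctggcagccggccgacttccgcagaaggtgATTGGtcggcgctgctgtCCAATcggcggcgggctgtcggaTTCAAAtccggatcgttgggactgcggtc
CDC20: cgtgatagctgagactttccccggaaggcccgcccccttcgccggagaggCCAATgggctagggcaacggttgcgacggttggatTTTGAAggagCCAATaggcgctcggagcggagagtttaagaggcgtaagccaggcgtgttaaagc
MKI67: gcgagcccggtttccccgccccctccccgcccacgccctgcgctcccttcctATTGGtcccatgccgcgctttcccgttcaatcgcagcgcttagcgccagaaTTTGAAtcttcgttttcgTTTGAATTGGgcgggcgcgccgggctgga
GTSE1: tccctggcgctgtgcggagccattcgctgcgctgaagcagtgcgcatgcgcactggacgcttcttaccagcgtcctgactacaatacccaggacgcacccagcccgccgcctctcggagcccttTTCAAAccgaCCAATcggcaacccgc
TACC3: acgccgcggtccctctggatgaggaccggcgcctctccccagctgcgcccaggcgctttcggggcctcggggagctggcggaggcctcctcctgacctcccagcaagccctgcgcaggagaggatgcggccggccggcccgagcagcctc
CKAP2: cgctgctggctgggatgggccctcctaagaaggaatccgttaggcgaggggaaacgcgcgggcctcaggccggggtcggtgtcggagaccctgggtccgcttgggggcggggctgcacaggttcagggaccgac

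In the MKI67 window the CHR letters run into an ATTGG, and 2 such overlaps occurred over all 44 windows. The CHR letters stood in 32 of the 44 windows (72.7%), against 15.2% of all 35116 RefSeq windows of the same length and 10.35% of those of protein-coding genes tested in both comparisons. CCAAT letters also stood in 32 of 44 (72.7%), against 34.6% of all windows, and 26 windows (59.1%) held both, against 5.90%. A CHR match began within the 50 bases before the start in 18 windows (40.9%), against 2.56% of all windows. The 8 genes with a window and no CHR match were AURKB, BUB1, CENPE, CKAP2, NCAPH, NEK2, PSRC1 and TACC3, and CENPE, CKAP2 and TACC3 had neither motif. The median log2 fold change was -1.21 in the 29 genes with a CHR match and -1.21 in the 8 without with SW-682, and -1.03 and -1.06 with pTEADi. A match is a string of letters and not a measured binding site, and no binding was measured here.

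**Figure D3:**
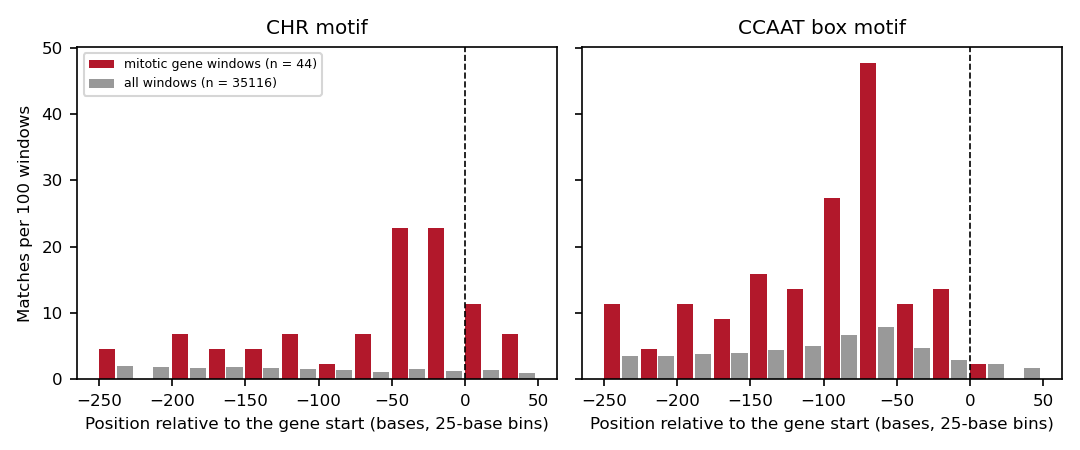
Matches per 100 promoter windows by position relative to the gene start (25-base bins) for the CHR letters and the CCAAT box letters, in 44 windows of the mitotic genes (red) and all 35116 windows (grey). In the mitotic genes, CHR matches are densest in the 50 bases before the start (10 matches in each of its 2 bins) and CCAAT matches in the bin that begins 75 bases before it (21 matches).

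Of the 8 genes for entry kinases and their partners, 7 fell with SW-682 and 8 with pTEADi, at median log2 fold changes of -1.21 and -1.02. The polo-like kinase PLK1 stood at 71.5, 57.8 and 93.3 CPM in Vehicle 1 to 3 and at 23.7, 39.7 and 32.1 CPM in smTEADi 1 to 3. It stood at 117, 134 and 128 CPM in Control 1 to 3 and at 69.1, 57.0 and 62.0 CPM in pTEADi 1 to 3. The groups did not overlap in either experiment, and the log2 fold changes were -1.22 ± 0.21 (SE; edgeR adjusted p = 0.0365) and -1.01 ± 0.10 (edgeR adjusted p = 4.31e-05). Levels of AURKA, the kinase that matures centrosomes, were 58.7, 45.8 and 65.2 CPM in Vehicle and 16.7, 29.3 and 26.4 CPM in smTEADi. They were 78.0, 88.4 and 78.2 CPM in Control and 35.4, 27.2 and 39.4 CPM in pTEADi. AURKA thus fell by 1.23 ± 0.20 on the log2 scale with SW-682 and by 1.26 ± 0.13 with pTEADi (edgeR adjusted p = 0.0365 and 5.91e-05).

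The engine of entry itself, CDK1, fell by 1.21 ± 0.28 and 1.07 ± 0.11 on the log2 scale, with SW-682 and pTEADi in that order. Its cyclin CCNB2 had log2 fold changes of -1.12 ± 0.24 and -1.04 ± 0.15. NEK2, a kinase that separates centrosomes, fell by 1.23 ± 0.26 and 1.18 ± 0.17. CKS1B and CKS2, small adaptors that bind cyclin-dependent kinases, fell least in this list, by 1.0 ± 0.22 and 1.01 ± 0.24 with SW-682 and by 0.94 ± 0.10 and 0.88 ± 0.11 with pTEADi. All of these passed in both comparisons (largest edgeR adjusted p = 0.0446, for CKS2 with SW-682).

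CDC25C, the phosphatase that removes inhibitory phosphates from CDK1, had the lowest fold change of all 45 genes with SW-682 and did not pass there. Its levels were 4.75, 2.97 and 3.86 CPM in Vehicle and 0.592, 2.04 and 1.21 CPM in smTEADi, the lowest resting on 8 counts. The log2 fold change was -1.57 ± 0.41 (edgeR adjusted p = 0.0538). With pTEADi, CDC25C went from 5.05, 5.71 and 5.8 CPM in Control to 3.45, 2.08 and 2.90 CPM, a log2 fold change of -0.97 ± 0.24 that passed (edgeR adjusted p = 0.0103). CDC25C had the largest SE of the 45 genes in both comparisons.

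All 3 genes of the chromosomal passenger complex, which corrects faulty attachments and guides cytokinesis, fell in both comparisons. AURKB, its kinase, stood at 24.7, 21.3 and 29.5 CPM in Vehicle and 7.55, 11.3 and 10.8 CPM in smTEADi. In the other experiment AURKB stood at 43.6, 49.6 and 45.6 CPM in Control and 22.3, 19.9 and 24.4 CPM in pTEADi. The highest treated library lay below the lowest control library each time, at log2 fold changes of -1.34 ± 0.19 and -1.06 ± 0.11 (edgeR adjusted p = 0.0365 and 6.33e-05). BIRC5, or survivin, was at 37.8, 31.1 and 54.3 CPM in Vehicle and 11.4, 21.4 and 20.1 CPM in smTEADi. It was at 72.1, 73.5 and 67.3 CPM in Control and 40.9, 34.9 and 40.6 CPM in pTEADi. BIRC5 fell by 1.22 ± 0.26 and 0.87 ± 0.09 on the log2 scale, and CDCA8, or borealin, by 1.02 ± 0.22 and 1.04 ± 0.12.

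All 4 spindle checkpoint genes fell in both comparisons, at median log2 fold changes of -1.33 with SW-682 and -1.26 with pTEADi. BUB1, the kinase that recruits checkpoint proteins to kinetochores, stood at 29.1, 19.6 and 30.9 CPM in Vehicle and 7.62, 13.3 and 9.84 CPM in smTEADi. BUB1B encodes BubR1, a part of the complex that inhibits CDC20, and stood at 26.2, 21.1 and 31.7 CPM in Vehicle and 4.89, 11.3 and 10.6 CPM in smTEADi. MAD2L1, which encodes MAD2, stood at 26.2, 18.5 and 27.3 CPM in Vehicle and 6.88, 13.7 and 11.8 CPM in smTEADi. No smTEADi library reached the lowest Vehicle library for any of them, and smTEADi 1 was lowest for each. In the other experiment BUB1 went from 29.5, 32.0 and 33.4 CPM in Control to 14.2, 9.97 and 15.5 CPM in pTEADi. BUB1B went from 29.3, 24.7 and 25.8 CPM to 11.5, 8.97 and 12.5 CPM. MAD2L1 went from 21.5, 23.5 and 21.1 CPM to 10.4, 9.26 and 10.7 CPM. These groups did not overlap either. With SW-682, BUB1B had the lowest fold change in the list (-1.55 ± 0.28, edgeR adjusted p = 0.0365). With pTEADi it was TTK, the kinase MPS1 that starts checkpoint signalling (-1.31 ± 0.15, edgeR adjusted p = 0.000119).

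The 3 genes for ubiquitin-dependent control of mitosis fell in both comparisons. CDC20, the activator of the anaphase-promoting complex and the target of the checkpoint, stood at 69.1, 54.3 and 88.7 CPM in Vehicle and 16.7, 32.3 and 32.4 CPM in smTEADi. It stood at 123, 164 and 117 CPM in Control and 58.9, 47.1 and 61.3 CPM in pTEADi. CDC20 fell by 1.38 ± 0.25 and 1.27 ± 0.14 on the log2 scale (edgeR adjusted p = 0.0365 and 9.62e-05), with no overlap between groups. UBE2C, the ubiquitin-conjugating enzyme that starts chains for the complex, stood at 67.9, 53.0 and 82.6 CPM in Vehicle and 14.8, 28.4 and 28.2 CPM in smTEADi. In Control it stood at 92.2, 114 and 99.0 CPM and in pTEADi at 46.9, 45.4 and 52.3 CPM. UBE2C fell by 1.51 ± 0.24 and 1.08 ± 0.10 (edgeR adjusted p = 0.0365 and 4.31e-05), and CDCA3, also known as trigger of mitotic entry, by 1.21 ± 0.25 and 1.07 ± 0.17.

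Of the 8 kinetochore and centromere genes, 7 fell with SW-682 and 8 with pTEADi, at medians of -1.22 and -0.99 on the log2 scale. KNL1, the outer kinetochore scaffold that docks BUB1, stood at 26.6, 15.3 and 28.7 CPM in Vehicle and 6.14, 10.4 and 8.48 CPM in smTEADi. It stood at 20.7, 19.3 and 18.9 CPM in Control and 8.46, 7.17 and 11.2 CPM in pTEADi. Its log2 fold change was -1.50 ± 0.26 with SW-682 and -1.13 ± 0.16 with pTEADi (edgeR adjusted p = 0.0365 and 0.000494). HJURP, the chaperone that loads CENPA, stood at 25.4, 15.2 and 23.9 CPM in Vehicle and 5.03, 10.8 and 10.3 CPM in smTEADi. It stood at 32.0, 31.9 and 26.3 CPM in Control and 12.4, 11.4 and 14.2 CPM in pTEADi. HJURP had the lowest fold change of the list with pTEADi (-1.25 ± 0.13, edgeR adjusted p = 7.44e-05), while CENPA, the centromeric histone it loads, had -0.84 ± 0.15 there and -1.08 ± 0.26 with SW-682.

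CENPF, a large coiled-coil protein of the outer kinetochore, stood at 86.5, 56.5 and 89.8 CPM in Vehicle and 21.5, 42.3 and 36.7 CPM in smTEADi. It stood at 74.3, 65.0 and 80.5 CPM in Control and 37.8, 36.2 and 42.4 CPM in pTEADi. The groups were apart in both experiments (-1.21 ± 0.25 and -0.92 ± 0.10), as they were for CENPE, the kinesin that moves chromosomes to the equator (-1.19 ± 0.25 and -1.07 ± 0.13).

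The NDC80 complex, the main microtubule clasp of the kinetochore, was represented by 3 subunits. NUF2 stood at 9.92, 7.56 and 8.68 CPM in Vehicle and 2.59, 4.22 and 4.35 CPM in smTEADi. In Control NUF2 stood at 10.8, 8.99 and 10.3 CPM and in pTEADi at 4.87, 4.23 and 3.66 CPM. NUF2 fell by 1.22 ± 0.23 and 1.24 ± 0.18 on the log2 scale, and SPC25 by 1.29 ± 0.29 and 0.81 ± 0.23. The subunit NDC80 stood at 14.9, 8.33 and 18.1 CPM in Vehicle and 3.03, 7.92 and 7.34 CPM in smTEADi. Its Vehicle 2 level lay just above smTEADi 2, and the fold change of -1.17 ± 0.36 did not pass (edgeR adjusted p = 0.0799). With pTEADi the gene NDC80 went from 15.7, 13.4 and 16 CPM to 8.99, 6.96 and 8.21 CPM and fell by 0.90 ± 0.15 (edgeR adjusted p = 0.00121).

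Of the 7 genes of mitotic chromosome structure, 5 fell with SW-682 and 7 with pTEADi. TOP2A, the topoisomerase that untangles sister DNA, stood at 137, 84.3 and 151 CPM in Vehicle and 32.4, 59.7 and 51.1 CPM in smTEADi. It stood at 131, 120.0 and 137 CPM in Control and 56.1, 50.4 and 68.5 CPM in pTEADi. TOP2A had log2 fold changes of -1.38 ± 0.25 and -1.15 ± 0.11 (edgeR adjusted p = 0.0365 and 5.32e-05). MKI67 encodes Ki-67, which coats mitotic chromosomes and is the standard stain for dividing cells, and stood at 180.1, 137 and 209 CPM in Vehicle and 41.9, 88.3 and 78.3 CPM in smTEADi. In Control MKI67 stood at 229, 213 and 203 CPM and in pTEADi at 116, 93.7 and 123 CPM. MKI67 fell by 1.33 ± 0.26 with SW-682 and 0.95 ± 0.11 with pTEADi (edgeR adjusted p = 0.0365 and 0.00012), with no overlap between groups.

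Condensin, the ring that compacts chromosomes, had 4 subunits in the set. SMC4 and NCAPD2 fell by 0.79 ± 0.18 and 0.77 ± 0.16 on the log2 scale with SW-682, and by 0.82 ± 0.10 and 0.77 ± 0.09 with pTEADi. NCAPG fell by 1.27 ± 0.26 and 1.14 ± 0.15 in that order. After CKAP2, SMC4 and NCAPD2 had the fold changes nearest 0 with SW-682, an order seen in the data and not tested between genes. NCAPH stood at 19.3, 15.0 and 22.5 CPM in Vehicle and 2.81, 9.70 and 9.27 CPM in smTEADi. Its smTEADi 1 level was far below the other treated libraries, and the fold change of -1.37 ± 0.36 did not pass (edgeR adjusted p = 0.0561). With pTEADi, NCAPH went from 23.9, 23.3 and 22.3 CPM to 10.9, 8.83 and 12 CPM and fell by 1.13 ± 0.14. CDCA2, which brings protein phosphatase 1 to anaphase chromatin, stood at 8.47, 5.58 and 8.27 CPM in Vehicle and 2.89, 4.55 and 3.92 CPM in smTEADi. CDCA2 did not pass with SW-682 (-0.97 ± 0.25, edgeR adjusted p = 0.0521). It went from 15.1, 10.8 and 11.3 CPM in Control to 5.99, 5.88 and 5.38 CPM in pTEADi, a fall of 1.11 ± 0.17 on the log2 scale (edgeR adjusted p = 0.00086).

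Of the 11 genes of the spindle, midzone and cytokinesis, 10 fell in each comparison. TPX2, which builds spindle microtubules and activates AURKA, stood at 109, 81.6 and 132 CPM in Vehicle and 31.1, 52.8 and 49.8 CPM in smTEADi. It stood at 129, 143 and 138 CPM in Control and 71.5, 61.1 and 74.1 CPM in pTEADi. TPX2 fell by 1.27 ± 0.22 and 0.99 ± 0.09 on the log2 scale (edgeR adjusted p = 0.0365 and 4.42e-05). GTSE1, a microtubule-tip protein that tunes spindle stability, stood at 23.4, 14.7 and 26.0 CPM in Vehicle and 6.29, 9.56 and 8.34 CPM in smTEADi. It stood at 32.9, 29.7 and 33.5 CPM in Control and 14.9, 14.1 and 15.0 CPM in pTEADi. GTSE1 fell by 1.40 ± 0.24 and 1.13 ± 0.11 (edgeR adjusted p = 0.0365 and 4.42e-05), and the pTEADi libraries differed among themselves by less than 1 CPM.

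CKAP2L, a spindle protein related to CKAP2, stood at 23.6, 18.3 and 25.1 CPM in Vehicle and 5.18, 7.59 and 10.4 CPM in smTEADi. It stood at 26.6, 24.0 and 25.2 CPM in Control and 11, 8.32 and 10.9 CPM in pTEADi. The log2 fold changes of CKAP2L were -1.53 ± 0.24 and -1.33 ± 0.14 (edgeR adjusted p = 0.0365 and 6.66e-05), the second of these the lowest of the 45 genes with pTEADi. CKAP2 itself, a microtubule stabiliser, moved least in both comparisons. It stood at 62.5, 46.4 and 49.8 CPM in Vehicle and 29.5, 42.4 and 40.3 CPM in smTEADi. In the other experiment CKAP2 stood at 44.3, 38.7 and 49.7 CPM in Control and 33.1, 30.9 and 41.3 CPM in pTEADi, where pTEADi 3 lay above Control 2. Neither fold change of CKAP2 passed (-0.50 ± 0.16 and -0.33 ± 0.13, edgeR adjusted p = 0.0871 and 0.0775).

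Among the other spindle genes, DLGAP5 (HURP, a stabiliser of kinetochore fibres) fell by 1.32 ± 0.29 and 1.31 ± 0.16 on the log2 scale with SW-682 and pTEADi. HMMR, which helps orient the spindle, fell by 1.3 ± 0.23 and 1.03 ± 0.15. TACC3, which bridges microtubules within kinetochore fibres, fell by 1.16 ± 0.20 and 0.91 ± 0.09, and NUSAP1, which bundles microtubules near chromatin, by 1.07 ± 0.26 and 0.95 ± 0.12. The cytokinesis genes PRC1, which bundles the midzone, and ECT2, which activates RhoA at the cleavage furrow, fell by 1.16 ± 0.26 and 0.91 ± 0.20 with SW-682. With pTEADi they fell by 0.93 ± 0.10 and 0.98 ± 0.12. PSRC1 fell by 0.99 ± 0.18 and 0.89 ± 0.13. All of these passed in both comparisons.

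PIMREG, a protein of the metaphase to anaphase transition, stood at 12.8, 8.76 and 16.7 CPM in Vehicle and 3.85, 6.46 and 6.63 CPM in smTEADi. It stood at 17.8, 15.7 and 17.2 CPM in Control and 10.3, 8.61 and 12.3 CPM in pTEADi. PIMREG fell by 1.17 ± 0.28 with SW-682 (edgeR adjusted p = 0.045) and by 0.70 ± 0.15 with pTEADi (edgeR adjusted p = 0.00532). With pTEADi only CKAP2 had a fold change nearer 0.

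**Figure D4:**
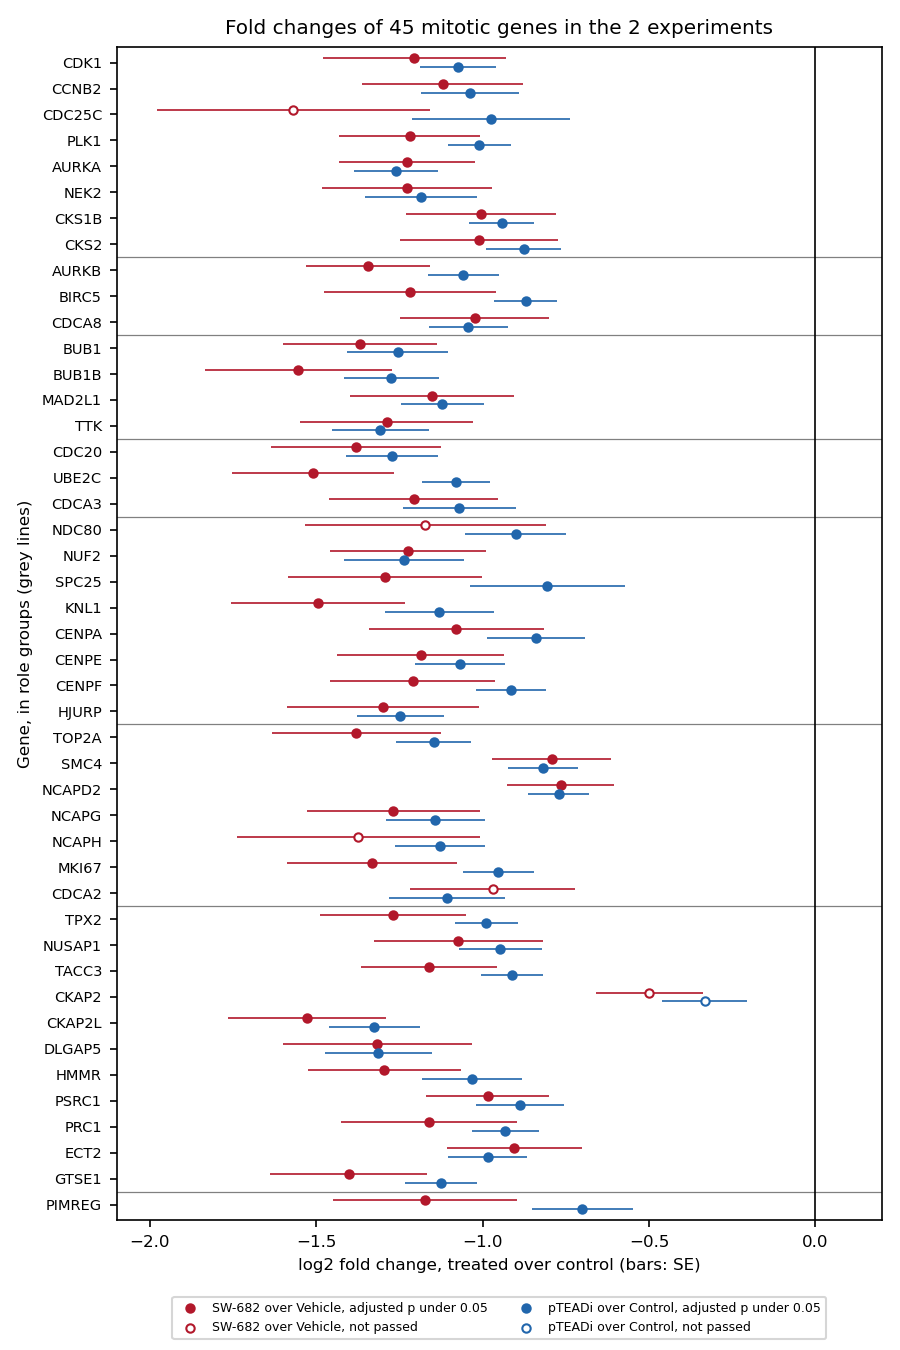
log2 fold changes of the 45 genes with their SE as bars, SW-682 over Vehicle in red and pTEADi over Control in blue, filled where the edgeR adjusted p was under 0.05 and open where it was not. All points lie left of 0, the SW-682 bars are wider than the pTEADi bars for every gene, and CKAP2 lies nearest 0 in both.

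The difference between the 2 effects was tested as the pTEADi effect minus the SW-682 effect, and 0 of the 45 genes passed in either direction. Over all 15460 genes in that test, 2 (0.0129%) passed as higher and 0 (0.0%) as lower. No mitotic gene had an unadjusted p under 0.05 in edgeR's quasi-likelihood test, and none did with DESeq2 or limma-voom. There were 3 such genes with no low-count filter, 3 without Vehicle 2 and 1 without smTEADi 2, and none of the 45 passed the adjusted threshold in those settings. The log2 fall was larger with SW-682 in 37 genes and larger with pTEADi in 8, at a median difference of 0.14. Over all 15460 genes the difference was above 0 in 7992. The 45 genes share the same libraries, so the 37 are not independent observations. Without smTEADi 1 their median log2 fold change with SW-682 was -1.01, beside -1.04 with pTEADi. With all libraries, the smallest p-values of the difference belonged to UBE2C (0.43 ± 0.29), PIMREG (0.47 ± 0.33) and AURKB (0.29 ± 0.21). Their edgeR adjusted p-values were 0.793, 0.808 and 0.826. CDC25C, which passed with pTEADi only, had the highest difference (0.60 ± 0.47) and CDCA2 the lowest (-0.14 ± 0.30). For NDC80 and NCAPH it was 0.27 ± 0.42 and 0.25 ± 0.42. Across the 45 genes the log2 fold changes of the 2 comparisons had a Pearson r of 0.683 and a Spearman rho of 0.634, or 0.473 and 0.559 without CKAP2, SMC4 and NCAPD2. This is across genes that share the same libraries, which are not independent, and it is given as a description.

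Per kilobase of transcript, a scale on which genes can be compared, UBE2C had the highest level of the 45 genes in both control groups, with 87.3 ± 19.0 CPM per kb in Vehicle and 131 ± 14.6 in Control (mean ± SD, n = 3). CKS1B was next (66.1 ± 13.8 and 95.4 ± 6.04), followed by CKS2 and CDC20, whose order differed between the control groups. At the other end, CDC25C was lowest in Vehicle (1.84 ± 0.43) and KNL1 in Control (2.12 ± 0.10), with CENPE close by (2.57 ± 0.67 and 2.31 ± 0.02). Under treatment UBE2C was at 30.6 ± 10.001 CPM per kb in smTEADi and 62.0 ± 4.66 in pTEADi, and KNL1 at 0.90 ± 0.23 and 0.97 ± 0.22. In smTEADi the level of CKS1B (32.9 ± 9.53) and that of UBE2C lay within their SDs of each other. Lengths are those of the Ensembl canonical transcripts in Gencode 44, and levels of other isoforms were not separated.

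Genes of the same pathways outside the set were drawn from 7 lists, also chosen with earlier results of these data known. All 136 genes had a row and passed the low-count filter. Of these, 48 fell and 0 rose with SW-682, and 81 fell and 4 rose with pTEADi. Over all genes tested, 3.48% fell and 2.02% rose with SW-682, and 13.6% fell and 12.7% rose with pTEADi. Median log2 fold changes were -0.68 and -0.61. With DESeq2 the SW-682 count was 72.

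Of 28 other kinetochore and inner centromere genes, 8 fell with SW-682 and 19 with pTEADi. SGO2, a guardian of centromeric cohesion, fell by 1.14 ± 0.22 and 1.19 ± 0.18, ZWINT, a partner of KNL1, by 1.42 ± 0.27 and 0.85 ± 0.13, and DSN1, a subunit of the MIS12 complex, by 0.78 ± 0.15 and 0.40 ± 0.12 on the log2 scale. CENPI, of the constitutive centromere network, fell with pTEADi (-1.05 ± 0.16) and had -1.0 ± 0.38 with SW-682 (edgeR adjusted p = 0.127). CENPT, which links that network to the NDC80 complex, was the only gene of the list that rose. Its level was 92.5 ± 6.90 CPM in Control and 166 ± 19.4 CPM in pTEADi (log2 fold change 0.84 ± 0.10, edgeR adjusted p = 0.00019), and 69.1 ± 4.32 CPM in Vehicle and 78.6 ± 6.65 CPM in smTEADi (0.19 ± 0.10, edgeR adjusted p = 0.268).

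Of 8 other checkpoint genes, 4 fell with each treatment. TRIP13, the ATPase that recycles MAD2, fell by 1.54 ± 0.37 and 1.28 ± 0.14 on the log2 scale. ZWILCH, of the complex that brings dynein to kinetochores, fell by 0.96 ± 0.22 and 0.78 ± 0.15, and the dynein adaptor SPDL1 by 0.71 ± 0.17 and 0.75 ± 0.14. KNTC1, a partner of ZWILCH, fell with SW-682 (-0.78 ± 0.17) and had -0.35 ± 0.15 with pTEADi (edgeR adjusted p = 0.118), while BUB3, which carries BUB1 and BubR1, had -0.39 ± 0.12 with SW-682 (edgeR adjusted p = 0.0714) and fell by 0.39 ± 0.10 with pTEADi.

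Among 14 condensin, cohesin and separase genes, 5 fell with SW-682 and 9 with pTEADi. The condensin II subunits NCAPG2 and NCAPD3 fell by 1.17 ± 0.22 and 0.92 ± 0.16 with SW-682 and by 1.05 ± 0.14 and 0.81 ± 0.09 with pTEADi. SMC2, the partner of SMC4 in both condensins, fell by 0.80 ± 0.17 and 0.62 ± 0.11. CDCA5, or sororin, which keeps cohesin on chromatin, fell by 1.35 ± 0.28 and 0.89 ± 0.12, and PTTG1, or securin, the inhibitor of separase, by 0.76 ± 0.15 and 0.70 ± 0.12. Of the cohesin ring, SMC3 had -0.36 ± 0.12 with SW-682 (edgeR adjusted p = 0.0907) and fell by 0.44 ± 0.12 with pTEADi (edgeR adjusted p = 0.0219). STAG2 had -0.05 ± 0.12 and -0.15 ± 0.12 and passed in neither.

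Fold changes of the anaphase-promoting complex's own subunits lay near 0. Of 17 subunits and regulators, UBE2S and FBXO5 fell in both comparisons. UBE2S, which extends the ubiquitin chains that UBE2C starts, fell by 0.92 ± 0.18 and 0.70 ± 0.11 on the log2 scale, and FBXO5, an inhibitor of the complex, by 1.03 ± 0.25 and 0.95 ± 0.20. Of the 14 core subunits, a split made after values had been seen, 0 fell or rose with SW-682 in edgeR's quasi-likelihood test (3 had an unadjusted p under 0.05). With pTEADi, 0 fell and 2 rose, a share near the 12.7% of all genes that rose. The 2 were ANAPC2, the cullin subunit (0.39 ± 0.09, edgeR adjusted p = 0.00927), and ANAPC5 (0.27 ± 0.08, edgeR adjusted p = 0.0322). ANAPC1, the largest scaffold subunit, had -0.46 ± 0.12 with SW-682 (edgeR adjusted p = 0.0524) and -0.25 ± 0.09 with pTEADi (edgeR adjusted p = 0.0662). Median log2 fold changes of the core subunits were -0.01 and 0.03, beside -1.22 and -1.04 of the 45 mitotic genes.

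Of 18 genes for DREAM, MYB-MuvB and FOXM1 regulators, 4 fell with SW-682 and 7 with pTEADi. FOXM1, the factor that drives G2 and mitotic genes, stood at 64.4 ± 13.8 CPM in Vehicle and 27.1 ± 7.69 CPM in smTEADi, and at 89.7 ± 8.11 CPM in Control and 42.6 ± 1.04 CPM in pTEADi. FOXM1 fell by 1.25 ± 0.22 and 1.07 ± 0.09 (edgeR adjusted p = 0.0365 and 2.66e-05). MYBL2, or B-MYB, fell by 1.24 ± 0.25 and 0.88 ± 0.10, and the repressor E2F7 by 1.17 ± 0.21 and 0.82 ± 0.15. The pocket protein gene RBL1 fell with pTEADi (-0.78 ± 0.12) and had -0.84 ± 0.24 with SW-682 (edgeR adjusted p = 0.0638), whereas RBL2 had 0.29 ± 0.11 and 0.12 ± 0.14 and E2F4, the main E2F of DREAM, -0.14 ± 0.10 and -0.18 ± 0.09. Neither RBL2 nor E2F4 passed in either comparison.

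Of 18 genes for mitotic phosphatases, cyclins and brakes on entry, 8 fell with SW-682 and 11 with pTEADi. The cyclin genes CCNA2, CCNB1 and CCNF fell by 1.25 ± 0.26, 1.3 ± 0.27 and 1.04 ± 0.19 with SW-682 and by 1.19 ± 0.11, 1.0 ± 0.10 and 0.73 ± 0.10 with pTEADi. The kinases WEE1 and PKMYT1, which hold CDK1 inactive, fell as well, by 0.86 ± 0.16 and 1.36 ± 0.21 with SW-682 and by 1.10 ± 0.13 and 1.09 ± 0.16 with pTEADi. So did the opposing phosphatase CDC25B, at log2 fold changes of -1.15 ± 0.20 and -1.10 ± 0.13. The activators and brakes named here thus fell together, but this did not hold for the whole list. Of its 18 genes, 10 did not pass with SW-682 and 6 did not with pTEADi. ARPP19, PPP2R2A, PPP2R1A and PPP2CA passed in neither comparison. ENSA, an inhibitor of the phosphatase PP2A-B55, rose with pTEADi (0.34 ± 0.08, edgeR adjusted p = 0.00945) and had 0.13 ± 0.10 with SW-682 (edgeR adjusted p = 0.405).

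The fall was not limited to genes of mitosis. Of 33 S phase genes, 17 fell with SW-682 and 29 with pTEADi, and all 33 had negative fold changes in both, at medians of -1.05 and -0.84. The nucleotide synthesis genes RRM2, TYMS and TK1 fell by 1.56 ± 0.30, 1.34 ± 0.24 and 1.35 ± 0.27 with SW-682 and by 0.98 ± 0.10, 1.04 ± 0.13 and 1.02 ± 0.09 with pTEADi. The replicative helicase gene MCM2 fell by 1.34 ± 0.26 and 0.95 ± 0.09, and the ligase gene LIG1 by 0.70 ± 0.13 and 0.45 ± 0.10. CCNE1, the cyclin of the step into S phase, had -0.16 ± 0.21 and -0.16 ± 0.18 and passed in neither.

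**Figure D5:**
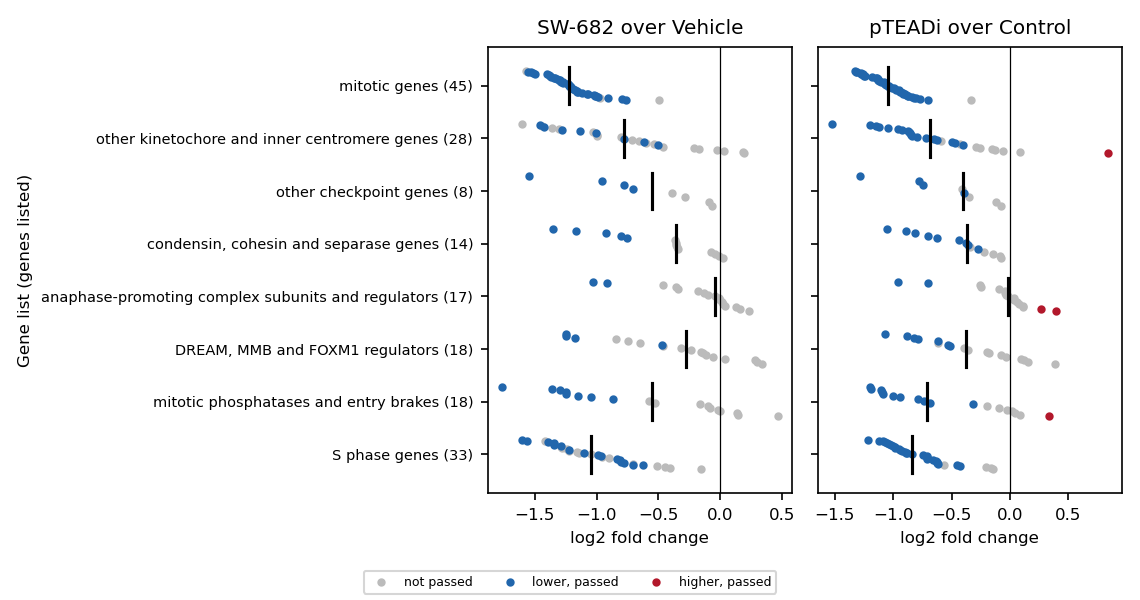
log2 fold changes of the 45 mitotic genes and of 7 lists of related genes (rows, number of genes in brackets) with SW-682 (left) and pTEADi (right). Each point is a gene, blue or red where it passed as lower or higher and grey where it did not, and black bars are medians. The medians of the mitotic and S phase genes lie furthest left, and the anaphase-promoting complex list centres near 0. The single points furthest left are CDC25A with SW-682 (-1.77) and SGO1 with pTEADi (-1.53).

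Markers of the tumour line and human markers of cell types that a host could contribute were read in the same libraries. Summed over 12 squamous carcinoma markers, levels were 55335 to 71424 CPM in smTEADi, 64231 to 86897 in Vehicle, 74987 to 87285 in pTEADi and 72492 to 86347 in Control, overlapping between groups in both experiments. None of the 12 was at 0, and the keratins and TP63 that define squamous cells were among them. Sums of the other cell types' markers were lower. They are counts of human genes, and since the handling of host reads is not given they do not measure host cells. The 8 endothelial markers summed to 37.4 to 65.9 CPM in smTEADi, above the 16.6 to 34.5 of Vehicle, and to 32.4 to 44.2 in pTEADi, above the 14.3 to 23.1 of Control, with KDR at 0 in all 12 libraries. Of the 8, 6 were under 10 counts in every library, and only VWF and ENG passed the low-count filter. Their log2 fold changes were 1.14 and -0.37 with SW-682, where neither passed, and 1.19 and 0.20 with pTEADi, where VWF alone passed. The 15 leukocyte markers summed to 36.1 to 57.5 CPM in smTEADi and 35.4 to 45.9 in Vehicle, which overlapped, and to 36.2 to 42.0 in pTEADi, below the 47.7 to 72.7 of Control. AIF1, TYROBP, C1QA, C1QB and MS4A1 were at 0, and 8 of the 15 leukocyte markers were under 10 counts in every library. The 6 adipocyte markers summed to 33.8 to 64.1 CPM in smTEADi, above the 21.6 to 28.0 of Vehicle. They overlapped in the other experiment (11.2 to 16.4 against 11.8 to 19.7), with ADIPOQ, LEP, CIDEC and LPL at 0. Only FABP4 passed the low-count filter in either comparison. Its log2 fold changes of 0.92 with SW-682 and -0.30 with pTEADi did not pass. The 11 fibroblast markers and the 6 skeletal muscle markers with a row overlapped between groups in both experiments, with COL3A1, THY1 and CKM at 0. Of the marker genes that passed the low-count filter, EPCAM fell in both comparisons, and with pTEADi KRT17, CSF1R, CD74 and FAP fell while DSG3, JUP and VWF rose. Mitochondrial shares were 4.54% to 5.64% in smTEADi, 4.95% to 5.99% in Vehicle, 4.41% to 4.90% in pTEADi and 3.64% to 4.50% in Control. The part of these differences in the fall of the mitotic genes was not tested.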

How the data were processed

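Poly-T selected mRNA of 12 samples was sequenced in paired reads of 150 bases. Per the submitters' processing notes, the authors aligned reads to hg38 with STAR 2.7.9a and estimated counts with RSEM 1.3.1, with Gencode 38 gene models. The authors deposited expected counts, 1 value per gene and library, without scaling. Strand and the handling of host reads are not given in the sources used here, so reads of antisense genes and of near-identical copies cannot be told apart. No pair of libraries within a group was a duplicate: chi-square per degree of freedom was 7.42 to 34.0.

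Counts were rounded and tested with edgeR 4.0.16 in R 4.3.3: filterByExpr (minimum count 10), TMM scaling, two-sided quasi-likelihood F test, adjusted p under 0.05 over all genes tested. Both treatments were set against their own controls, and the difference of the effects was fitted over all 12 libraries. The biological coefficient of variation was 0.157 for SW-682 and 0.118 for pTEADi. Marker sums use CPM with TMM factors, and list means a prior of 0.5 CPM. Names came from Gencode 44. The tests were checked on simulated data. Alternatives were other scalings, filters and thresholds, DESeq2 1.42.0, limma-voom (limma 3.58.1), unrounded counts, a spread shared by the 4 groups, a replicate block and each library left out.

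The genes and lists were chosen with earlier results of these data known. By rule, values in every library are given for the 2 genes of each role list with the smallest p in either comparison, those nearest 0 and those that missed a call, and from each pathway list up to 3 genes with the smallest p and any that moved against most. SMC2, SMC3, STAG2, BUB3, RBL2, E2F4 and CCNE1 were added after their values were seen. Same-numbered libraries were not treated as pairs in the main tests, since the labels do not state a pairing.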

Additional observations from a re-analysis of the deposited data

How the results depend on the processing

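All 45 genes kept a negative fold change under every alternative run, and median log2 fold changes stayed between -1.41 and -1.01 (SW-682) and between -1.12 and -0.95 (pTEADi) with any library left out. Counts for SW-682 did not hold at a stricter threshold, with the replicate block or with some libraries left out. The count of mitotic genes was 40 and 39 with other scalings. It was 40 with unrounded counts or a filter of 10 counts in 3 libraries, and 41 with limma-voom. It was 45 with no low-count filter, with DESeq2 and with a spread shared by the 4 groups. At an adjusted p of 0.01 the 40 mitotic genes, 48 pathway genes and 816 genes in all became 0, 0 and 0. With any library left out these 3 counts ranged from 0 to 44, 0 to 70 and 0 to 1622. Without smTEADi 1 and Vehicle 2, all genes and pathway genes called were 2073 and 78. With no low-count filter these were 2101 and 77, with a spread shared by the 4 groups 2303 and 81, and DESeq2 called 1893 genes. With DESeq2, 17 rather than 8 of the other kinetochore genes and 26 rather than 17 of the S phase genes fell with SW-682. For pTEADi, 3864 genes became 2138 at 0.01 and ranged from 2325 (without pTEADi 2) to 4379 with any library left out, 2573 without Control 1. The cause of these changes was not tested. Counting depth limits CDC25C most, with 8 to 83 counts per library.

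Replicate numbers shared between groups were tried as a block. Deviations of same-numbered libraries from their group means correlated at -0.154 to 0.143. With 3 libraries per group, these values cannot decide whether same-numbered libraries share anything beyond the number. With the replicate block, 0 mitotic genes, 0 pathway genes and 0 genes in all passed with SW-682 (smallest adjusted p of a mitotic gene 0.0828, edgeR), and 45 mitotic genes passed with pTEADi.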

Other observations

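The control groups of the 2 experiments were set side by side. On CPM without TMM scaling, every Control library lay above every Vehicle library in 16 of the 45 genes and below in 0, and the ranges overlapped in 29. Of the 14384 genes tested in both comparisons, 23.7% lay above in that way and 24.5% below. The experiments were deposited as separate tables, and this difference was not tested. Summed over the 45 genes, levels were 2361 to 2439 CPM in Control, 1447 to 2270 in Vehicle, 1067 to 1320 in pTEADi and 599.6 to 1030.4 in smTEADi. The Control libraries were the most alike on the mean log2 CPM of the set (5.25 ± 0.0041, mean ± SD, n = 3), beside 4.92 ± 0.32 in Vehicle, 4.24 ± 0.17 in pTEADi and 3.74 ± 0.43 in smTEADi.

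Within a library, the mean log2 CPM of the mitotic genes minus that of the 33 S phase genes was -0.20, -0.12 and 0.05 in Control 1 to 3 and -0.35, -0.44 and -0.26 in pTEADi 1 to 3. It was -0.08, -0.19 and -0.07 in Vehicle 1 to 3 and -0.15, -0.26 and -0.37 in smTEADi 1 to 3. The pTEADi libraries were all below the Control libraries, and the smTEADi and Vehicle libraries overlapped.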
